A study of Mus musculus with 8 samples.

Results

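FOXA1 Hi-ChIP loops were compared between a liver mets cell line and a primary tumor cell line, both derived from KPC mice, a genetically engineered model of pancreatic cancer. Hi-ChIP joins proximity ligation of chromatin with immunoprecipitation, so each loop is a pair of anchors on 1 chromosome recovered together with the bound factor. Members were the 186999 distinct anchor pairs found in the FOXA1 liver mets list (125623 loops), the FOXA1 tumor list (104136 loops) or both, out of 249200 distinct pairs in the 4 lists of the series. The other lists came from HNF4G Hi-ChIP of the same lines and were used only for comparison. Both lines were unedited (genotype WT) and untreated mouse pancreatic cancer cells, grown in DMEM with 10% FBS, and the study describes them as isogenic and matched. Each state was therefore represented by 1 line, and what holds for the line cannot be told apart from what holds for the metastatic state. Each of the 4 groups had 2 replicates that were pooled into 1 list, so no spread between replicates could be calculated and no test between the lines was run. Sequencing depth was not analysed here, and a difference in depth between the lists cannot be told apart from a difference in looping.

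FOXA1 is a forkhead pioneer factor that opens chromatin at enhancers of endoderm-derived tissues, among them pancreas and liver. Enhancers act on genes at a distance by coming close to promoters in nuclear space, and such contacts can be recorded as loops. A promoter can keep its number of loops while exchanging the anchors at the other end, so number and partners were described separately. HNF4G is an orphan nuclear receptor.

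Some of the anchors on which the results turn are shown first, as 61 bases of the mm10 assembly (read from GRCm38.p6, which has the same coordinates) around a forkhead spelling. Capitals mark TGTTTAC, and every sequence runs 5′ to 3′ on the strand that holds this spelling. The first pair lies in distant partners that the Myc and Sox4 promoters had in both FOXA1 lists. Myc is a growth-promoting transcription factor and Sox4 a factor of progenitor cells. The Myc window lies at chr15:61535599-61535659 on the plus strand and the Sox4 window at chr13:28738900-28738960 on the plus strand.
Myc partner: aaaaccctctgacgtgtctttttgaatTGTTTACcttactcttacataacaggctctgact
Sox4 partner: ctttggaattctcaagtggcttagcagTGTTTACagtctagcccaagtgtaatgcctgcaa
The next 3 windows lie in partners of the Sh3bp4, Epha2 and Rbms1 promoters whose loops had the top value of 20 in liver mets and were not in the tumor list. They lie at chr1:88773226-88773286 (plus strand), chr4:141562408-141562468 (minus strand) and chr2:61246699-61246759 (plus strand).
Sh3bp4 partner: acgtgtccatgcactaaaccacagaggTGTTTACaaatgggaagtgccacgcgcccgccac
Epha2 partner: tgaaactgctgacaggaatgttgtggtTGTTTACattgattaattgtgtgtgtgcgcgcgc
Rbms1 partner: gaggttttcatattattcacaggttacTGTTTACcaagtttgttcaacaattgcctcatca
The last pair lies in partners of the Foxp1 and Itpr1 promoters that were looped in the tumor list only, at chr6:99173876-99173936 (minus strand) and chr6:108709135-108709195 (plus strand).
Foxp1 partner: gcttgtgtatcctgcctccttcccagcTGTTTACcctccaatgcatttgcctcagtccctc
Itpr1 partner: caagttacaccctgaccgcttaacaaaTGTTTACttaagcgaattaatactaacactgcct
Only anchors with a match are shown. Of 20 partner anchors searched, 8 held no TGTTTAC, namely 2 of 8 for liver mets only (Krt19, Trim8), 4 of 7 for tumor only (En1, Il33, Cnnm2, Jag1) and 2 of 5 for both lists (Tmem140, Plekhg2). Over all anchors away from protein-coding starts, 39.4% held a match. Among such anchors in loops of value 4 or more, the share was 45.4% for liver mets only, 45.5% for tumor only and 47.8% for both lists. These anchors were longer, with median lengths of 3.045, 2.86 and 3.29 kb against 2.25 kb over all anchors away from starts. Per kb they held fewer matches, with 0.180, 0.177 and 0.1865 against 0.204. The few anchors searched here thus show no difference between the lines. A match is a description of these letters and not a measured binding site.

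Loops present in both FOXA1 lists were short, and those found in only 1 list were long. The 42760 loops in both lists made up 34.04% of the liver mets list and 41.1% of the tumor list, with a median span of 61.0 kb between anchor midpoints. With anchors widened by 5 kb on each side, 64.0% of the tumor list was shared. The 82863 loops found only in liver mets had a median span of 268.3 kb, and the 61376 found only in tumor 250.5 kb. Between 5 and 10 kb, 78.7% of liver mets loops were also in the tumor list. Between 1000 and 2000 kb this was 4.13%. The anchors themselves were mostly common, since 28358 were used in both lists, 1214 only in liver mets and 733 only in tumor. The anchors used in 1 line only carried at most 11 loops in liver mets and 8 in tumor. Of the loops found in 1 list only, 96.9% in liver mets and 97.9% in tumor joined anchors that both lists used, under identical matching.

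The excess of liver mets loops grew with span and was smallest between promoters. The ratio of loop numbers, liver mets over tumor, rose from 1.051 (95% interval 1.01 to 1.09) at 5 to 10 kb to 1.43 (1.39 to 1.47) at 1000 to 2000 kb. As a share of each list, the shortest loops were less frequent in liver mets (ratio 0.871) and the longest more frequent (1.19). An anchor within 2 kb of the start of a protein-coding gene was called a promoter anchor, which applied to 11729 of 30542 anchors (38.4%). Loops between promoter anchors had a ratio of 1.14, loops with 1 promoter anchor 1.20 and loops with 0 promoter anchors 1.254. Matched for span, the odds of a loop coming from the liver mets list rather than the tumor list, relative to the other classes, were 0.929 (0.911 to 0.948), 0.980 (0.964 to 0.996) and 1.08 (1.06 to 1.10), respectively. At 1000 to 2000 kb the ratio was 1.33 (upper bound 1.41) with 2 promoter anchors and 1.55 (lower bound 1.48) with none. These intervals cover counting error only, and they count each loop as independent although many loops use the same anchors.

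**Figure D1:**
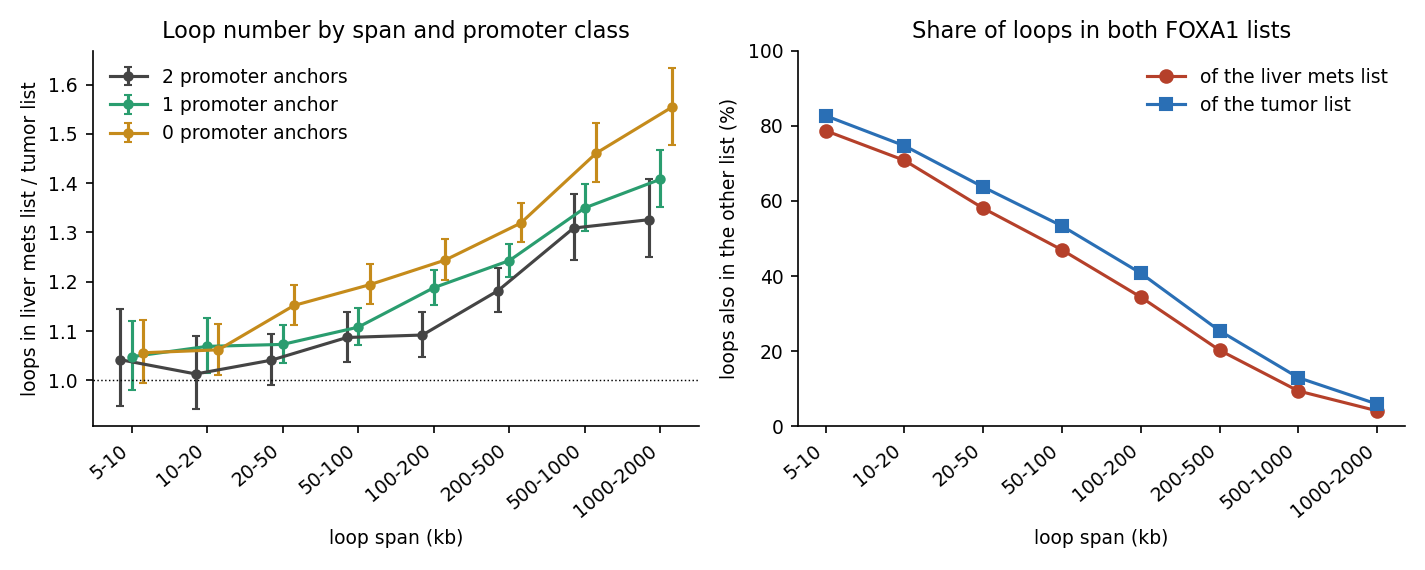
Left, number of FOXA1 loops in the liver mets list divided by that in the tumor list (y axis) by loop span in kb (x axis), for loops with 2, 1 or 0 promoter anchors, with 95% exact intervals. Right, percentage of each list also found in the other list by span. The ratio climbs to 1.55 for the longest loops without a promoter anchor, while the shared part falls from 78.7% to 4.13% of liver mets loops.

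Loop numbers at single promoters changed little relative to the length of each list. Of 10700 protein-coding genes with a FOXA1 loop, 3826 had 20 or more loops summed over both lists and were compared. The measure was the log2 ratio of shares, in which the number of loops at a promoter plus 1 was divided by the length of its list. A promoter was called higher or lower when this ratio reached 1.5-fold. By this rule 191 genes (4.99%) were higher and 339 (8.86%) lower in liver mets, and the median log2 ratio over all compared genes was −0.05 (SD 0.40 across genes). Without division by list length 676 were higher and 94 lower, so that 87.8% of calls were higher by count and 36% by share. The calls came mostly from promoters with few loops. The SD across genes was 0.47 for 20 to 29 loops (116 higher and 219 lower of 1567) and 0.24 for 60 or more loops (3 higher and 10 lower of 640). The exact 95% interval of the share ratio left out 1 in 46 genes (1.2%), 20 above and 26 below.

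**Figure D2:**
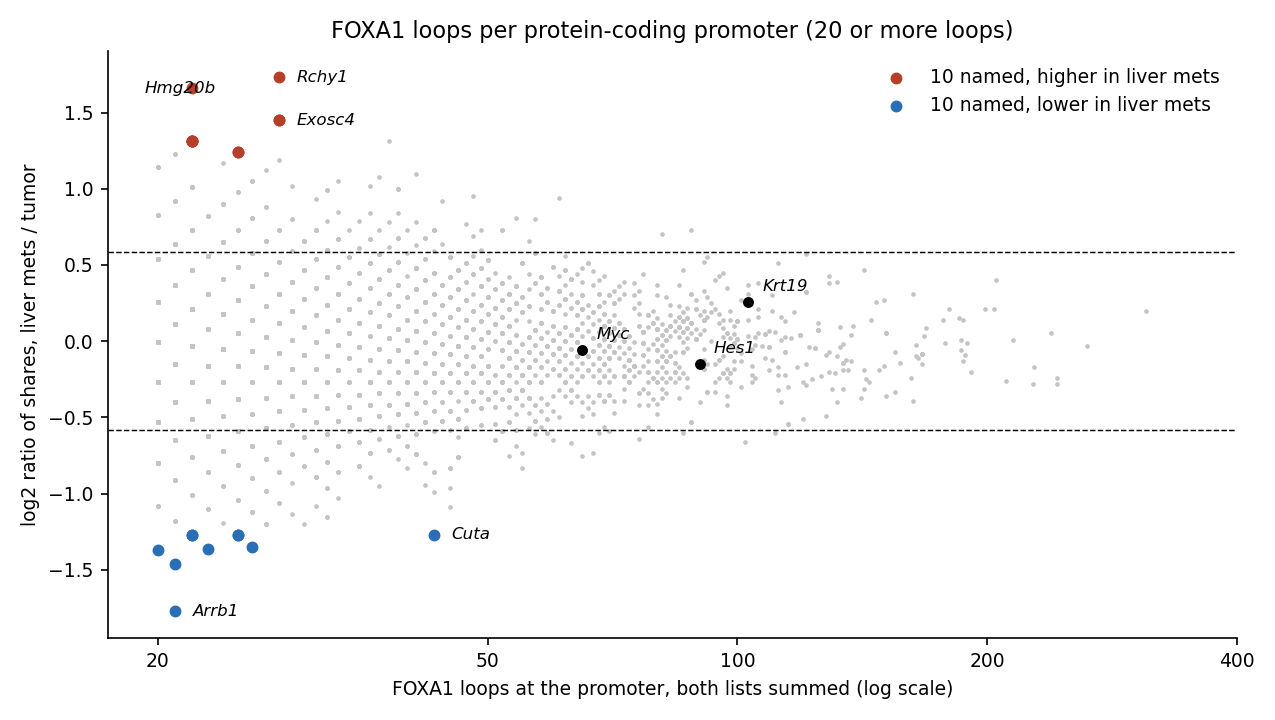
Each grey point is a protein-coding promoter with 20 or more FOXA1 loops. The x axis gives its loops summed over both lists (log scale) and the y axis the log2 ratio of shares, liver mets over tumor, with dashed lines at 1.5-fold. The 10 named promoters on either side (red higher, blue lower, some overlying each other) lie at low loop numbers, and Myc, Krt19 and Hes1 (black) lie near 0.

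Among genes whose promoters gained loops in liver mets, Rchy1 stood first. Rchy1 (chr5:91948904-91963068, minus strand), a ubiquitin ligase that acts on p53, had 23 loops in the liver mets list and 5 in the tumor list, 3 of them in both (log2 share ratio 1.73, share ratio without added counts 3.81, exact 95% interval 1.42 to 12.8). The 20 loops found in liver mets only reached the starts of annotated genes at 8 anchors and spanned up to 1358 kb. Their partners included the starts of Areg and Btc, which encode ligands of the EGF receptor, at 822.7 and 559.7 kb, and the start of the chemokine gene Cxcl11 at 407 kb. The 2 loops found in tumor only reached Rassf6 and the chemokine gene Cxcl2. None of the Rchy1 loops had a value of 4 or more, where the value is the number deposited for each loop, taken as −log10 of an adjusted p. The highest was 3.38, for a loop in both lists to an intron of Parm1. The loops to Areg, Btc and Cxcl11 had values of 1.869, 1.856 and 1.784 and were in neither HNF4G list.

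The other 9 promoters with the highest ratios had 17 to 22 loops in liver mets and 4 to 6 in tumor. Hmg20b, which encodes a subunit of a histone demethylase complex, had 18 against 4 loops (log2 1.66), and the median span over all of its loops was 81.1 kb. Its partners in liver mets only included the starts of the tight junction gene Tjp3 (value 0.0889), of Nfic (0.0889) and of Tle2 (1.59). Read as above, values as low as those for Tjp3 and Nfic give little evidence of a loop. Exosc4, a core subunit of the RNA exosome, shared its promoter anchor with Oplah, an enzyme of the glutathione cycle, and went from 6 loops in tumor to 22 in liver mets (log2 1.45). Lsm14a, a protein of RNA storage granules, showed the same numbers, but only 1 of its loops was in both lists against 5 for Exosc4. Aff4, a scaffold of the super elongation complex, had 17 against 5 loops (log2 1.31), and all 5 tumor loops were also in liver mets. The same numbers were found for Secisbp2, which acts in selenoprotein synthesis, for Tmem171 and for Kifc5b, a kinesin motor. Kcnh3, a potassium channel gene, and Setd5, which encodes a SET domain protein, each had 19 against 6 loops (log2 1.24). The lower bound of the exact interval was 0.998 for the 4 genes with 17 against 5 loops, and between 1.01 and 1.42 for the other 6. With a start window of 5 kb in place of 2 kb, Hmg20b (log2 0.39), Tmem171 (0.17) and Setd5 (0.54) were no longer past 1.5-fold.

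The loss of loops was led by Arrb1, which encodes β-arrestin 1, an adaptor of G protein-coupled receptors. Arrb1 (chr7:99535466-99606771, plus strand) had 5 against 16 loops (log2 −1.77, share ratio 0.259, exact 95% interval 0.0742 to 0.740), and none was in both lists. Of the tumor loops 7 reached the start of an annotated gene, such as Wnt11 at 687 kb and Klhl35 at 62.3 kb, whereas the liver mets loops reached the starts of Gdpd5 and P2ry2. Kdm5b, a demethylase of methylated histone H3 lysine 4, likewise had no loop in both lists, with 7 in liver mets and 15 in tumor (log2 −1.27). Both lists joined Kdm5b to the start of Tmem183a and to its own intron, but from different anchors near the Kdm5b start, so that no anchor pair was identical. Rfc1, the large subunit of the clamp loader of DNA replication, had 6 against 14 loops (log2 −1.37), and Syce2, a component of the synaptonemal complex, 6 against 15 (log2 −1.46). Pou2f1, an octamer-binding transcription factor, had 7 against 16 loops (log2 −1.36), and Aunip, which binds Aurora kinase A, 8 against 18 (log2 −1.35). The remaining promoters were those of Ankrd23 (7 against 15), the ubiquitin ligase gene Rnf126 (8 against 17), Ccdc92 with Zfp664 (8 against 17) and Cuta (14 against 29), all at log2 −1.27. The interval reached 1.01 for Ankrd23 and Kdm5b and stayed under 1 for the other 8. Kdm5b (log2 −0.27 with the start inside the anchor) and Rnf126 (log2 −0.57 with a start window of 5 kb) were not past 1.5-fold under those windows.

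The neighbors Kifc5b and Cuta changed in opposite directions. Kifc5b (chr17:26917091-26932583, plus strand) and Cuta (chr17:26933819-26939569, minus strand) are adjacent and their starts lie 22.5 kb apart, yet Kifc5b had more loops in liver mets and Cuta fewer. In the region of 1 Mb on each side the log2 share ratio was −0.18 around Kifc5b and −0.12 around Cuta. For all 20 named promoters this regional ratio lay between −0.18 and 0.06, so the surrounding region did not move as the promoter did. Matching for span moved none of the 20 log2 ratios by more than 0.07. Of the 20 promoters 18 had no loop with a value of 4 or more, and Exosc4 and Pou2f1 had 1 each.

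The same promoters were also counted in the HNF4G lists, which were separate libraries of the same lines. Of the 10 promoters higher with FOXA1, 7 also had a higher HNF4G share in liver mets, among them Kifc5b (13 against 5 loops) and Rchy1 (12 against 7). The comparison over all genes took only those with 20 or more HNF4G loops summed, so its shares are not comparable with the 7 of 10. Rchy1, Lsm14a, Aff4, Secisbp2, Tmem171 and Kifc5b had fewer. Of the other named promoters higher with FOXA1, Exosc4 and Setd5 were higher with HNF4G and Hmg20b and Kcnh3 lower. Over all genes compared for HNF4G, 984 of 2522 had a higher HNF4G share in liver mets (39.02%). This held for 36 of the 92 called higher with FOXA1 (39.1%) and for 65 of the 165 called lower (39.4%). By the 1.5-fold rule, 8 of the 92 were higher with HNF4G (8.70%) and 21 lower (22.8%). Of the 165, 9 were higher (5.45%) and 21 lower (12.7%), against 6.23% and 12.4% of all 2522. Among the 10 promoters higher with FOXA1, Kcnh3 went the other way, with 8 HNF4G loops in liver mets and 32 in tumor. Of the 10 promoters lower with FOXA1, 5 were also lower with HNF4G, and Arrb1 had 5 and 7 HNF4G loops. Across the 2522 genes with enough loops for both factors, Pearson's r between the FOXA1 and the HNF4G log2 share ratios was −0.0301 and Spearman's rho −0.0359. These are descriptions across genes, which are not independent replicates and share the anchors and lines.

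**Figure D3:**
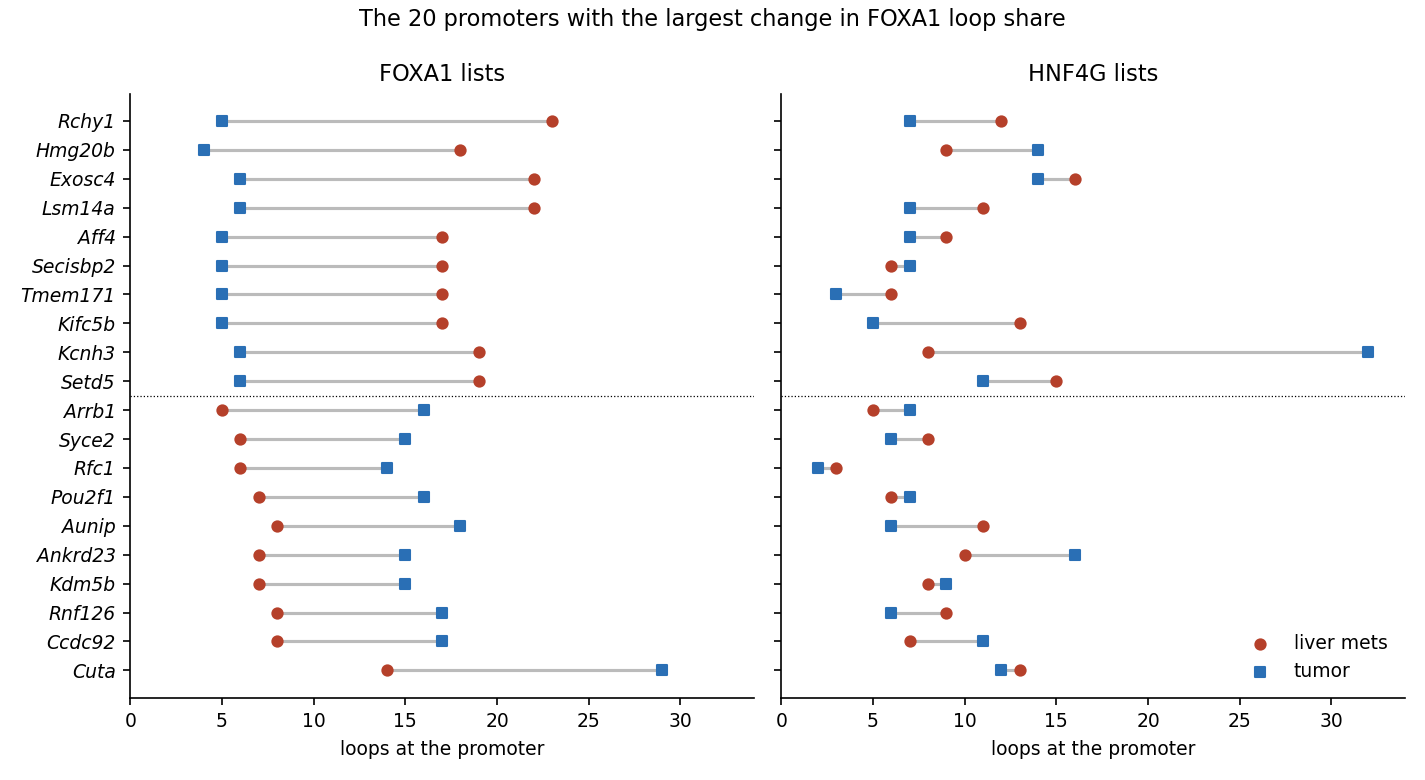
Loops at the 20 promoters with the largest change in FOXA1 loop share (upper 10 higher, lower 10 lower in liver mets), as number of loops (x axis) in the liver mets list (circles) and the tumor list (squares). FOXA1 is on the left and HNF4G on the right. Every FOXA1 pair is separated by 8 or more loops because the promoters were chosen for it, while the HNF4G pairs point both ways and Kcnh3 has 8 and 32.

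FOXA1 loops found only in liver mets and those found only in tumor turned up in each HNF4G list at nearly the same share. Of the FOXA1 loops found only in liver mets, 16.5% were in the HNF4G liver mets list and 15.7% in the HNF4G tumor list. Of those found only in tumor, 16.7% and 15.6% were found there. Of the loops in both FOXA1 lists, 49.8% and 46.7% were found. Among line-specific FOXA1 loops that were in 1 HNF4G list only, the span-matched odds ratio of a match by line was 0.981 (95% interval 0.938 to 1.03), where a value above 1 would mean that the loops followed the line. With FOXA1 loops of value 4 or more it was 1.02 (0.683 to 1.52). In the 8 span ranges it ran from 0.920 at 5 to 10 kb to 1.19 at 1000 to 2000 kb, and every interval included 1.

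**Figure D4:**
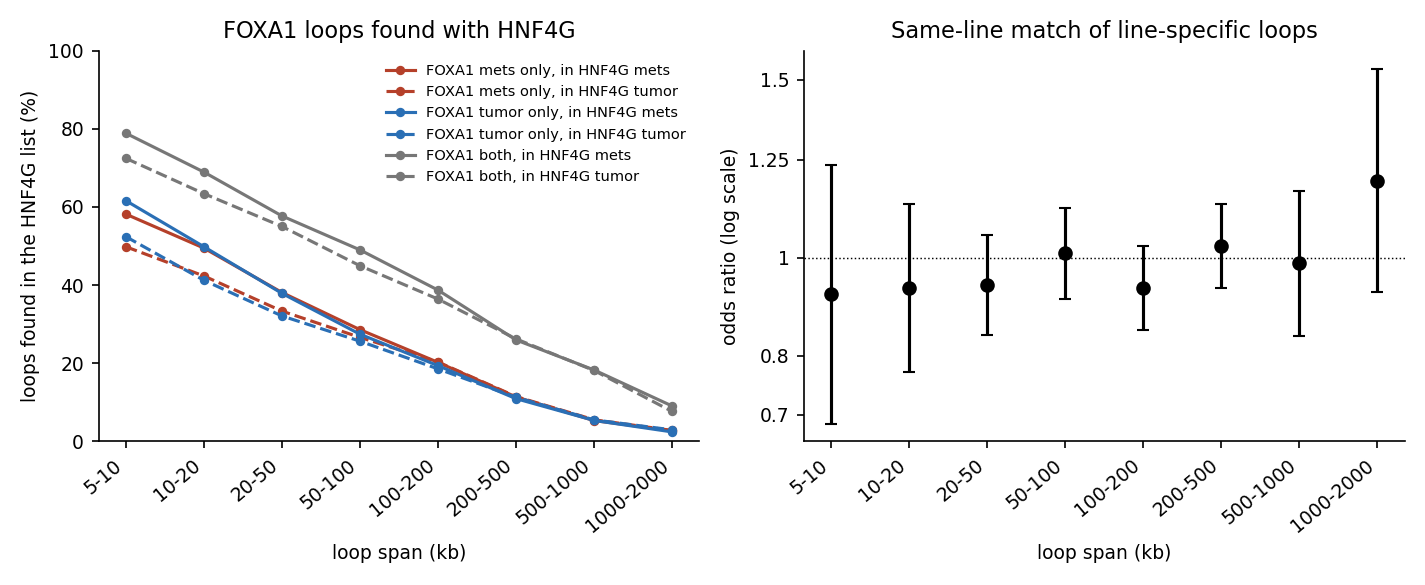
Left, percentage of FOXA1 loops (liver mets only, red, tumor only, blue, both lists, grey) found in the HNF4G liver mets list (solid) and the HNF4G tumor list (dashed) by loop span in kb. Right, odds ratio (log scale) of a same-line match for line-specific FOXA1 loops, with 95% intervals. The red and blue lines nearly coincide and the odds ratios lie between 0.920 and 1.19.

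Loops with high values were largely kept between the lines. In liver mets 32.5% of loops with a value under 2 were also in the tumor list, 62.1% at values from 4 to 8 and 95.1% (312 of 328) at the top value of 20. In tumor the same shares were 39.6%, 72.2% and 100% (114 of 114, Wilson interval 96.7% to 100%). Still, 1008 of 3244 liver mets loops of value 4 or higher (31.1%) and 421 of 1826 such tumor loops (23.1%) were absent from the other list. The minimum for listing a loop is not known, so an absent loop may have been present below it.

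The single-list loops of highest value at promoters were chosen after their values were seen. In liver mets 10 such loops had the top value of 20 and no entry in the tumor list. They joined Sh3bp4 to an intergenic anchor 298.3 kb away, Epha2, an ephrin receptor, to one 250.4 kb away, and Sema3c, a secreted semaphorin, to one 213.3 kb away. Another joined the anchor at the starts of Mtx1, Muc1 and Thbs3, where Muc1 encodes an epithelial mucin, to that of Cks1b and Shc1 (191.7 kb). The others started at Krt19, Foxf2, Cdc42ep1 with Lgals2, Trim8, Rbms1 and Ankrd50. In tumor the highest values were 11.1 at En1, a homeobox gene, 10.2 at Il33, an alarmin cytokine, and 9.94 at Itpr1, a calcium channel of the endoplasmic reticulum. They were followed by Cnnm2, Krt19, the Notch ligand gene Jag1, Mecom, Zfand5, Foxp1 and Ppt2 with Prrt1, down to 7.86. The tumor loops of Il33, Krt19 and Zfand5 were in neither HNF4G list. The liver mets loop of Sh3bp4 had a value of 8.21 in HNF4G tumor and 1.91 in HNF4G liver mets, and that of Foxf2 8.25 and 3.45.

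Counted by loops of value 4 or higher alone, 73 promoters had 10 or more loops summed. By the 1.5-fold rule 6 (8.22%) were higher and 15 (20.5%) lower in liver mets as a share of such loops, a count chosen after the data were seen. Those higher were Polr2e, a subunit of the RNA polymerases (9 against 2 loops, log2 0.91), Myc (14 against 4, log2 0.76), and Ramp1, Phlda1, Tprn and Arhgap45 (8 against 2 each, log2 0.76). The lowest were Card10, a scaffold of NF-κB signaling (4 against 8, log2 −1.68), Stn1, a telomere protein (7 against 9, log2 −1.15), and Itpr1 (6 against 7, log2 −1.02). With all loops the log2 share ratios were −0.05 for Myc, −0.21 for Card10 and 0.16 for Stn1, and none of the 21 genes was called.

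Krt19, a keratin of ductal epithelium, switched between strong partners. From the same promoter anchor (chr11:100143925-100152377), a loop with value 20 reached an intergenic anchor at chr11:99573212-99577780 (572.7 kb) in liver mets only, and a loop with value 9.01 reached chr11:99412628-99415094 (734.3 kb) in tumor only. In total Krt19 had 61 against 42 loops (log2 0.26), and 18 against 8 of them had values from 4 upward, 5 of these in both lists. With 25 loops in both lists, Krt19 kept 2.65 times the number expected from the spans of its loops.

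Most partners of a promoter were found in 1 list only. Partners were counted by their loops, so a partner was in both lists only if the promoter anchor was identical too. Among 1902 genes with 15 or more loops in each list, the median share of partners found in both lists was 27.6% of all partners of the gene (quartiles 20.7% and 33.3%), against 22.9% of all distinct FOXA1 loops. With partner anchors within 5 kb counted as the same, from any promoter anchor of the gene, it was 43.2%. For the 1334 of these genes with nearly the same share of loops in both lists (the limit is given with the methods), the median was 28.4% (quartiles 21.9% and 34.5%). Since short loops are shared more often, this number was divided by that expected from the spans of the gene's loops. The median of shared over expected was 1.251, with 52 genes under 0.5 and 170 above 2. It went up with the number of loops of value 4 or higher at the promoter, from 1.01 for the 823 genes with none to 1.29, 1.59 and 2.10 for 1 to 2, 3 to 5, and 6 or more. The median number of loops summed rose as well, from 44 to 50, 62 and 88.5. Loops of high value were also shared more often in general. The part of either in this rise was not tested.

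The fewest partners were kept at Eftud2, a GTPase of the spliceosome. Eftud2, which shared an anchor with Ccdc103, had 19 loops in liver mets and 15 in tumor, and 0 of 34 were in both against 6.61 expected. The liver mets loops reached 12 anchors at the start of an annotated gene, among them Ubtf, Gjc1, Kif18b and C1ql1, and the tumor loops 4, among them Fmnl1 at 291.6 kb with a value of 5.27. Here too, some partner anchors were reached in both lines from different anchors of the promoter, such as an anchor in Gm16342 that lay at 101.3 kb in liver mets and 142.4 kb in tumor. Tango2 with Arvcf kept 2 of 36, and Lin37, a subunit of the DREAM cell cycle repressor, 2 of 30. Sppl3, an intramembrane protease, kept 3 of 38 and Mpp3, a scaffold protein, 2 of 35. These 5 promoters had at most 1 loop with a value of 4 or more. The few partners kept at Tango2, Sppl3 and Mpp3 were nearer than the others, with median spans of 162.2, 93.6 and 70.5 kb.

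The most partners were kept at Onecut2, Myc, Sox4, Tmem140 and Plekhg2. Onecut2, a liver and pancreas transcription factor, kept 15 of 27 partners, 3.77 times the expected number. Myc kept 21 of 44 (3.58 times) with 35 against 30 loops, Sox4 14 of 23 (3.58 times), Tmem140 15 of 22 (3.49 times) and Plekhg2 with Zfp36, a destabilizer of inflammatory mRNAs, 21 of 42 (3.45 times). The loops they kept were not short, with medians between 241.3 and 307.5 kb. At Onecut2, 86.7% of the kept and 41.7% of the other loops were in an HNF4G list, and at Sox4 71.4% and 33.3%, whereas at Plekhg2 it was 57.1% and 52.4%. Because the genes were chosen for kept partners, these ratios are descriptions.

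**Figure D5:**
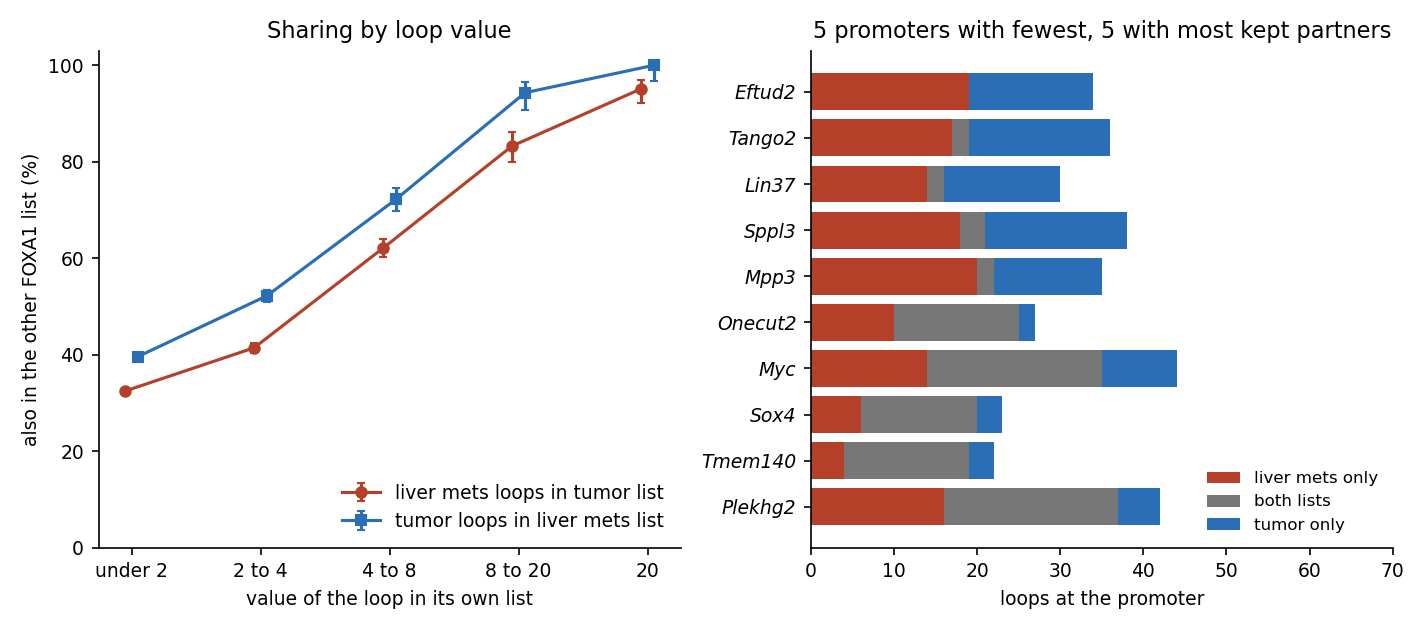
Left, percentage of FOXA1 loops also found in the other list (y axis) by the value of the loop in its own list (x axis), with 95% Wilson intervals. Right, loops at the 5 promoters that kept the fewest and the 5 that kept the most partners, split into liver mets only (red), both lists (grey) and tumor only (blue). Sharing rises to 95.1% and 100% at the top value, and Eftud2 has no shared loop against 21 at Myc.

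At Myc the partners kept in both lines lay on both sides of the gene. The anchor shown above, 452.1 kb away at chr15:61530573-61537191 within D030024E09Rik, had a value of 20 in both FOXA1 lists, and values of 11.96 and 3.79 with HNF4G in liver mets and tumor. On the other side, kept loops reached introns of Pvt1, the noncoding neighbor of Myc, with values of 20 in liver mets and 1.42 in tumor at 142.4 kb, 20 and 4.39 at 165.3 kb, and 20 and 5.61 at 343.1 kb. Loops found in liver mets only included one with a value of 12.5 at 1355 kb in Gm41335 and another with 8.46 at 119.8 kb. The highest value of a Myc loop found in tumor only was 3.64, at 479.2 kb. Overall 14 Myc loops had a value of 4 or more in liver mets and 4 in tumor, 3 of them in both, against 3244 and 1826 such loops in the whole lists. At Sox4 the kept loops lay mainly in 2610307P16Rik, and the strongest, at 213.3 kb, had values of 20 and 9.34.

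Tmem140 was the promoter among these with 2 forkhead spellings at its start. Its 300 bases at chr6:34862896-34863195 (plus strand, RefSeq promoter table, GRCm38.p6, 250 bases before to 50 after the start) are printed because, of the promoters that kept the most partners and were in the table, it alone held the spelling, with TGTTTAC on either strand searched and the matches in capitals.
Tmem140 promoter: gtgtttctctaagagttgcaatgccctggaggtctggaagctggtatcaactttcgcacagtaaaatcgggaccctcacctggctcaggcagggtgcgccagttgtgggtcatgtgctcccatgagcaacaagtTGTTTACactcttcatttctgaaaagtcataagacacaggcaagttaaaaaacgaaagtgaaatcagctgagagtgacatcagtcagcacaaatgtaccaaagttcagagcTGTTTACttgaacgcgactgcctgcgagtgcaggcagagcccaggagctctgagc
Of the 32851 promoters in the table, 3.65% held TGTTTAC on either strand. Among the named promoters Ankrd23 also held it, with 1 match.

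Away from gene starts, calls of more loops outnumbered calls of fewer, the reverse of promoters. Of 3845 anchors without a start within 2 kb and with 20 or more loops, 345 (8.97%) were higher and 284 (7.39%) lower in liver mets by the same rule, against 4.99% and 8.86% of promoters, and this difference was not tested. The highest lay in an intron of Sipa1l3 (chr7:29495116-29498180), with 21 against 3 loops (log2 2.19), and was joined in liver mets to the starts of Spint2, an inhibitor of surface proteases, Map4k1, Nfkbib and Sirt2. The next lay in D17Wsu92e (18 against 3 loops, log2 1.98), near Srf (22 against 5, log2 1.67), in Atg7 (18 against 4, log2 1.66) and 7.83 kb from Hes1, a Notch target (25 against 6, log2 1.62). The anchor in D17Wsu92e was joined to Spdef, a factor of secretory epithelium, and to Dusp1 in liver mets, and it reached a start of Spdef in tumor too. Cuta was among its partners. The lowest lay in Arl3 (6 against 18 loops, log2 −1.71), where the loops to Nfkb2, Sufu and Cnnm2 were in the tumor list only, and 4.66 kb from Pgap3 (6 against 16, log2 −1.55), with Erbb2, Grb7, Krt19 and Csf3 as partners in tumor only. Anchors near Rab33b and Bms1 and in Col4a2 had 6 loops against 15 each (log2 −1.46), and that near Bms1 was joined to Ret, a receptor tyrosine kinase gene, in tumor only. At the anchor in Col4a2 the loops to Col4a1 and Col4a2, which encode collagen IV chains, were in both lists.

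The forkhead spelling TGTTTAC was about as frequent in anchors that gained loops as in those that lost them. Away from gene starts, TGTTTAC (both strands) occurred 0.170 times per kb (exact 95% interval 0.148 to 0.196) in higher anchors, 0.155 (0.129 to 0.183) in lower anchors and 0.175 (0.168 to 0.183) in the others. In promoter anchors it was 0.148, 0.130 and 0.133 per kb. The ratio of higher over lower was 1.10 (0.880 to 1.38) away from starts and 1.14 (0.876 to 1.47) at promoters. Over all anchors TGTTTAC occurred 0.204 times per kb away from starts and 0.143 at promoters. A second forkhead spelling, TATTTAC, occurred 0.150 times per kb (0.124 to 0.180) in higher promoter anchors. It occurred 0.116 times (0.0960 to 0.139) in lower promoter anchors and 0.107 (0.101 to 0.113) in the others. Its ratio of higher over lower was 1.29 (0.992 to 1.69) at promoters and 1.09 (0.870 to 1.365) away from starts. This difference between the spellings was not tested. Anchors on chromosome 18 were counted here, but none is printed.

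Few genes of known pathways and cell types were called higher or lower. The 16 lists held 353 genes, of which 163 had 20 or more loops, and 4 of these were higher (2.45%, against 4.99% of all compared genes) and 5 lower (3.07%, against 8.86%). Calls were rarer at promoters with many loops, as given above. Among genes with a loop, list medians ran from 10 loops (hepatocyte markers) to 44 (AP-1 factors), against 14 over all genes. The part of loop number in the lower share of calls was not tested. Of 29 foregut and pancreatic transcription factors, 24 had a loop and 16 were compared, with 0 higher and 0 lower and a median log2 ratio of −0.04. Hes1 had 47 loops in liver mets and 43 in tumor with 37 in both, Ehf 40 and 33, Grhl2 39 and 23, and Onecut3 33 and 28. Foxa1 itself had 11 and 8 loops and Hnf4g 0 and 2, too few to compare. In this list 10 of the 11 genes with 15 or more loops in each list lay above the median of shared over expected for all genes, and their median was 2.11 against 1.251. Compared list members had a median of 3 loops with a value of 4 or more, against 0 over all compared genes, and the part of this difference in the sharing was not tested. Of 30 genes of epithelial adhesion and keratins, 20 were compared. Prss8, a channel-activating protease, was higher (16 against 7 loops, log2 0.82) and Pkp2, a desmosomal plakophilin, lower (10 against 14, log2 −0.72). The members with most loops were Tjp3 (70 and 55), Jup, which encodes plakoglobin (53 and 52), Krt19, and Cdh1, which encodes E-cadherin (62 and 41).

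Cytokine and cell cycle lists held most of the other calls. Of 19 compared chemokine and cytokine signaling genes, Lif, a cytokine of the IL-6 family (24 against 12, log2 0.67), and Nfkb1, an NF-κB subunit (15 against 6, log2 0.92), were higher. Relb, another NF-κB subunit, was lower (9 against 13, log2 −0.76). Socs3 (71 and 41), Bcl3 (49 and 31), Csf3 (47 and 47) and Rela (40 and 40) carried the most loops. Of 11 compared cell cycle genes, the tumor suppressor genes Cdkn1a (11 against 15, log2 −0.69) and Trp53 (14 against 19, log2 −0.69) were lower, while Mxi1 (57 and 41), Ccnd3 (45 and 33), Ccnd1 (38 and 32) and Myc were within 1.5-fold. The exact interval of the share ratio included 1 for each of the 9 list genes called higher or lower, including Col1a1 below.

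The lists of matrix, adhesion and transition genes showed few calls. Of 9 compared genes of mesenchymal transition, Col1a1, a fibrillar collagen gene, was lower (9 against 12, log2 −0.65), and Lgals1 (25 and 26), S100a4 (21 and 22), Fn1 (21 and 20) and Tgfb1 (19 and 18) were not. None of the compared genes was called among 12 of matrix and invasion (Lama5 48 and 38, Itga3 40 and 41, Itgb4 39 and 30), 8 AP-1 factors (Fosl1 44 and 31, Atf3 37 and 32, Mafk 32 and 27, Junb 29 and 20) or 12 of the TGF-β and BMP pathway (Ltbp3 95 and 74, Smad3 66 and 44, Smad7 55 and 36, Tgif1 36 and 33). The same was found for 11 genes of the YAP and TEAD pathway (Vgll4 89 and 61, Tead3 55 and 41, Tead1 47 and 44, Tead4 24 and 26), for 12 of glycolysis and hypoxia (Vegfa 43 and 34, Slc16a3 37 and 30, Gapdh 31 and 36, Aldoa 27 and 29) and for 14 of axon guidance (Ephb3 69 and 65, Plxnd1 56 and 42, Sema3f 48 and 43, Plxna1 45 and 47). Vegfa, an angiogenic growth factor, kept 28 partners in both lists (3.13 times expected), and Tgif1, a repressor of TGF-β signaling, 27.

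Few marker genes of other cell types had a loop in either line. Of 14 hepatocyte markers 3 had a loop, namely Apoa1 (6 in liver mets and 4 in tumor), Apoa2 (4 and 7) and Apob (7 and 3), and defining markers without a loop numbered 11. Of 11 immune markers, Cd68 had 8 and 9 loops and the other 10 had none. None of 13 acinar and endocrine markers had a loop, and 3 of 13 fibroblast and endothelial markers did, with 34 against 32 loops in total. Of 30 epithelial genes 26 had a loop, and of all 21924 protein-coding genes 10700 (48.8%). Markers that had a loop did not all carry few. Their median number of loops summed was 10 for hepatocyte markers, 17 for the immune marker and 21 for fibroblast and endothelial markers. Over all genes with a loop it was 14.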

How the data were processed

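FOXA1 and HNF4G Hi-ChIP libraries of KPC tumor and liver mets lines were aligned by the authors to mm10 with HiC-Pro 3.1.0 (DpnII fragments, duplicates removed), and loops were called with hichipper. The authors deposited 1 loop list per group. How the 2 replicates were joined, the anchor source and the minimum of paired reads were not stated. Each loop carried an unnamed value deposited by the authors, taken from its ties and its ceiling of 20 as the −log10 of an adjusted p, and a display score deposited beside it, which was not used. Tied values differed between lists, so equal values need not mean equal evidence.

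Loops were matched by identical anchor pairs and annotated with GENCODE M21 starts (protein-coding genes, 2 kb). Calculations used Python 3.11.15, pandas 2.3.3, numpy 2.4.6 and SciPy 1.17.1, with matplotlib 3.10.9 for plots. Share ratios used 1 added count and genes with 20 or more loops summed. Ratios had exact conditional 95% intervals, shares Wilson intervals and span-matched odds ratios Mantel-Haenszel estimates over 8 span ranges. Expected shared partners came from the shared fraction of each span range. All intervals cover counting error only. The calculations were tested on simulated lists. With 1 list per group no test was possible.

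Named genes were the 10 highest and 10 lowest share ratios (protein-coding, predicted genes left out), the 5 promoters keeping fewest and most partners (15 or more loops in each list, share ratio under 1.25), the 5 highest and lowest anchors, and up to 4 members with most loops per gene list. Members of lists that passed 1.5-fold, marker genes with loops and strong single-list loops were named after their values were seen. The result of 1 gene list and the values of some genes are not reported here. Members and gene lists were chosen with earlier results of these data known. Windows, minimum loops, values and spans were varied as alternatives.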

Additional observations from a re-analysis of the deposited data

How the results depend on the processing

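No paired analysis was possible because the pooled lists carry no replicate numbers, and leaving out a replicate could not be done for the same reason. The share of tumor loops in both lists (41.1%) was 64.0% with anchors widened by 5 kb, 28.6% at values from 2 upward and 44.1% under 1 Mb. The median share of partners in both lists (27.6%) was 43.2% with partner anchors within 5 kb counted as the same, from any promoter anchor of the gene. It was 25% with a minimum of 10 loops per list and 30.6% with loops under 1 Mb. At values of 2 or more the loop ratios were 1.23, 1.40 and 1.63 with 2, 1 and 0 promoter anchors, and the odds ratio of a match with HNF4G by line was 0.905. Calls of promoters (191 higher, 339 lower) were 676 and 94 by raw counts, 641 and 985 at a minimum of 10 loops and 27 and 48 at 40. Chosen after seeing the data, loops of value 2 or higher gave 44 and 92 calls among 445 genes, of which 1 and 4 were also called with all loops, and loops of value 4 or higher gave 6 and 15 among 73, of which none was. The cause was not tested beyond the smaller number of loops that each alternative leaves. With raw counts the balance of promoter calls turned from mostly lower to mostly higher. The other 29 alternatives of these results stayed within 1.5 times the count or within the interval. For promoter calls this compares the number of calls and not which genes were called. With loops of adjusted p 0.05 or less, 171 genes were called higher and 235 lower among 1919. Of these, 53 and 85 were also called with all loops.

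Of the 138 alternative values of the 20 named promoters, 136 lay within the exact interval of the promoter and 2 outside it, and none changed sign. Of these values 5 fell under 1.5-fold, all with another start window, for Hmg20b, Tmem171, Setd5, Kdm5b and Rnf126. Unknown depth and listing minimum limit every statement on an absent loop.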

Other observations

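Spellings of other factors, searched on both strands as an alternative added after the data were seen, were counted in the same anchors. TGANTCA, the spelling bound by AP-1 factors, occurred 0.396 times per kb (exact 95% interval 0.353 to 0.444) in promoter anchors with more loops in liver mets and 0.274 (0.243 to 0.308) in those with fewer, against 0.313 in the others. The ratio was 1.45 (1.22 to 1.71) with a minimum of 20 loops and 1.12 (1.01 to 1.24) with 10. Away from starts it was 1.13 (0.997 to 1.29) and 1.17 (1.10 to 1.255). The CTCF motif, searched by its core letters, had a ratio of 0.669 (0.508 to 0.880) away from starts and 0.978 (0.713 to 1.34) at promoters. The GC content of promoter anchors was 52.0% in the higher and 53.0% in the lower set, and its part in these ratios was not tested.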
